A study of Mus musculus with 26 samples.

Results

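Between 48 and 72 h of astrocyte differentiation in the presence of TNF, no probe set passed the test for a change. The comparison set the 2 arrays titled TNF at 72 h against the 3 arrays titled TNF at 48 h, which are 5 of the 26 arrays of the series. It covered the 23410 probe sets with a gene symbol among 35556 in the deposited table. All cells came from neurospheres (NSPs), floating clusters of neural stem and progenitor cells, grown from the ventricular zone of E14 C57BL/6J mouse embryos. The NSPs were plated on poly-L-ornithine in medium with 10% fetal bovine serum, in which they turn into astrocytes. TNF-treated cells received TNF at 50 ng/mL from 0 h, so both groups carried TNF throughout and differed by the last day of culture. Untreated cells, with 3 arrays at 48 h and 3 at 72 h, had the same medium without TNF. The series calls its replicates biological. RNA came from whole cultures, in which fewer cells of a type and less RNA per cell cannot be told apart.

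TNF binds a receptor on the cell surface, which activates the IKK kinase and frees the transcription factor NF-κB from its inhibitors, the IκB proteins. NF-κB then switches on chemokines, adhesion molecules and the genes of its own inhibitors, a feedback that limits the response. Progenitors that become astrocytes leave the cell cycle and gain the filament protein GFAP, glutamate transporters and secreted matrix proteins.

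The values are log2 signals after RMA, the Affymetrix normalization that corrects background, gives all arrays a common distribution and joins the probes of a probe set. A difference of 1 is a doubling. Array medians ran from 7.54 to 7.76. A dim level was set at 7.14, the level below which the means of 40% of all probe sets lay. Of 29 measured astrocyte markers, 28 were above that level on all 5 TNF arrays, beside 3 of 18 microglia and macrophage markers, 3 of 12 endothelial markers, 9 of 20 oligodendrocyte markers and 16 of 25 neuron markers. Mean signals of the microglia and macrophage list were 6.57 to 6.66 at 48 h and 6.54 to 6.57 at 72 h, and those of the astrocyte list 11.25 to 11.57 and 11.40 to 11.48. The third TNF array of 48 h correlated more closely with the 72 h arrays (r = 0.994 and 0.995 across all probe sets) than with the other arrays of its own time (0.990 and 0.991). Without it, the arrays of the times did not overlap in 24.7% of all genes with higher and in 15.8% with lower signals at 72 h, and the counts of the lists below are read beside these shares where they are given without it.

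The first question was how far expression still moved in the last day under TNF. In limma, 0 probe sets were called higher and 0 lower at a q-value under 0.05 (0% of 35556 in each direction), and 0 with Benjamini-Hochberg adjustment. The smallest q-value was 0.64. At an unadjusted p under 0.05, 305 probe sets had higher and 529 lower signals at 72 h. Among probe sets with a symbol, 98.8% differed by less than 0.5 on the log2 scale, 1 was higher by 1 or more and 8 were lower by 1 or more. The median 95% interval reached 0.35 to either side of the estimate before any adjustment for the number of probe sets. Untreated cells had 3 probe sets called higher between the same times (0.00844%) and 0 called lower (0%, 179 at an unadjusted p under 0.05). Without the third TNF array of 48 h, 1 probe set was called higher under TNF, that of Gpld1, and 0 lower. With arrays weighted by quality, Sorbs3 was the only call.

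**Figure D1:**
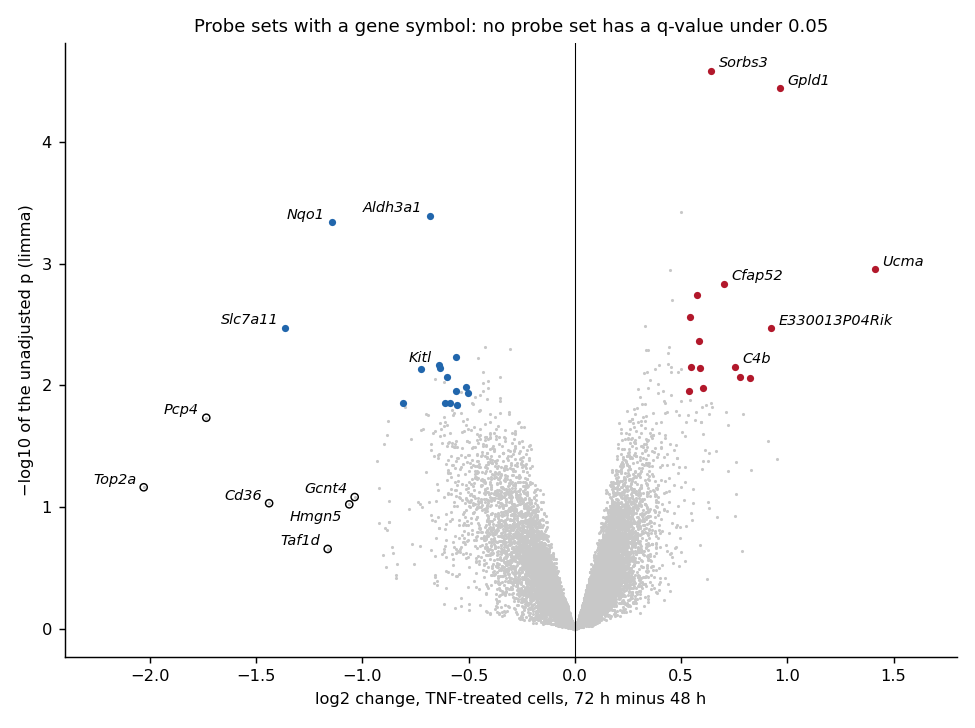
Each point is a probe set with a gene symbol, placed by its log2 change under TNF (72 h minus 48 h, horizontal axis) and by −log10 of the unadjusted limma p (vertical axis). Red and blue points are the 15 leading probe sets in each direction, and open circles are others that differed by 1 or more. Sorbs3 and Gpld1 have the smallest p, and no point has a q-value under 0.05.

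Since no probe set passed, the genes below are given as values. They are the 15 probe sets in each direction with the smallest unadjusted p among those that differed by at least 0.5 and whose arrays did not overlap between the times. Over 19938 genes with 1 probe set each, the arrays did not overlap in 10.4% with higher and in 7.26% with lower signals at 72 h, and an unadjusted p under 0.05 was reached by 0.928% with higher and 1.01% with lower signals.

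Sorbs3 encodes vinexin, an adaptor of cell adhesions, and lies on chromosome 14 (70180468 to 70212023, GRCm38.p6). Its log2 signals were 8.53, 8.51 and 8.75 at 48 h and 9.20 and 9.28 at 72 h. The difference was 0.64 (SE 0.12, unadjusted p = 2.58e-05 and q = 0.64 in limma), and both 72 h arrays were above all 48 h arrays. With array weights its q-value was 0.026.

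Gpld1, on chromosome 13 (24937785 to 24991936), encodes a phospholipase that releases GPI-anchored proteins from membranes. Its signals were 8.73, 8.64 and 9.33 at 48 h and 9.66 and 10.07 at 72 h, a difference of 0.97 (SE 0.18, q = 0.64). The third array of 48 h was the nearest of its group to the 72 h arrays. Without it the difference was 1.18 and passed (q = 0.036 in limma). With each array left out in turn, the difference ran from 0.76 to 1.18.

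Ucma, on chromosome 2 (4976122 to 4985748), encodes a secreted protein of cartilage matrix and had the largest difference upward among probe sets with a symbol. Its signals were 8.65, 8.18 and 9.41 at 48 h and 10.11 and 10.20 at 72 h, a difference of 1.41 (SE 0.37, q = 1). The third 48 h array was again the highest of its group, and without it the difference was 1.74 (q = 0.43). Without the second 48 h array, the lowest of its group, the difference was 1.13. The array numbered 2 was also the lowest of untreated cells at 48 and 72 h and of TNF-treated cells at 24 h, but not of those at 72 h.

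C4b encodes complement component C4. It had 9.93, 9.61 and 10.30 at 48 h and 10.66 and 10.74 at 72 h (difference 0.75, SE 0.25), so that the third 48 h array again lay nearest to the 72 h arrays. Defb1, which encodes a beta-defensin of mucosal defence, had 7.60, 7.57 and 7.63 at 48 h and 8.24 and 8.14 at 72 h (difference 0.59, SE 0.20). The 3 arrays of 48 h were close together for Defb1, and both 72 h arrays stood well above them.

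Of the other leading genes with higher signals, Cfap52 encodes a protein of cilia and had 8.63, 8.43 and 8.91 at 48 h and 9.42 and 9.30 at 72 h (difference 0.70, SE 0.19). Fgf7, the keratinocyte growth factor, had 6.94, 6.18 and 7.14 at 48 h and 7.46 and 7.69 at 72 h (difference 0.82, SE 0.28). In both genes the groups were separate by less than the range within 48 h, and without the second 48 h array Fgf7 differed by 0.54. Ccn5, a matricellular protein, differed by 0.58 (SE 0.16), Rai2, named for its induction by retinoic acid, by 0.58 (SE 0.18), and Ndrg1, a gene known for its response to hypoxia and stress, by 0.55 (SE 0.18). Cadm3, a cell adhesion molecule of neural cells, differed by 0.60 (SE 0.21), Rhob, a small GTPase, by 0.54 (SE 0.19), and the uncharacterized E330013P04Rik by 0.92 (SE 0.28). These 6 genes had differences between 0.54 and 0.92. That of Cadm3 was 0.37 without the first 72 h array and 0.40 without the second 48 h array.

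Plb1, which encodes a phospholipase, led with 2 of its 7 probe sets (differences of 0.54 and 0.78). Its probe sets ranged from −0.02 to 0.78, so the difference was not shared by all of them.

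**Figure D2:**
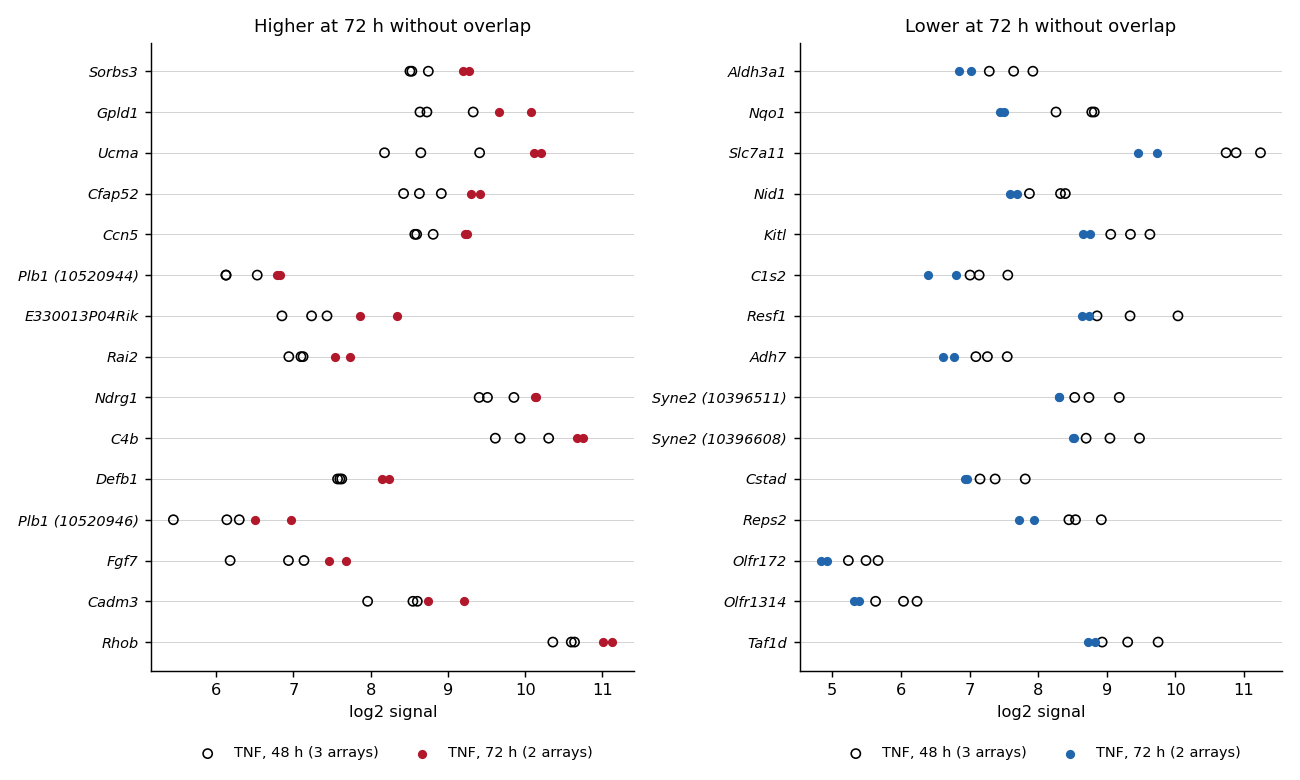
Log2 signal (horizontal axis) of the 30 leading probe sets on each TNF array, with open circles for the 3 arrays of 48 h and filled points for the 2 arrays of 72 h. The groups do not overlap in any row, as the choice of these probe sets required. Nqo1 and Slc7a11 have a wide gap between the groups, and in Resf1 and Taf1d the lowest 48 h array lies next to the 72 h arrays.

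Among genes with lower signals at 72 h, Aldh3a1, on chromosome 11 (61208510 to 61218418), encodes an aldehyde dehydrogenase. Its signals were 7.29, 7.64 and 7.92 at 48 h and 7.02 and 6.85 at 72 h, a difference of −0.68 (SE 0.16, q = 1 in limma). Here the third 48 h array was the farthest from the 72 h arrays, and the difference was −0.53 without it.

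Nqo1, on chromosome 8 (107388225 to 107403205), encodes a quinone reductase and is a standard target of the stress-response factor NRF2. Its signals were 8.26, 8.82 and 8.78 at 48 h and 7.45 and 7.51 at 72 h, a difference of −1.14 (SE 0.27). Slc7a11, on chromosome 3 (50364936 to 50499087), encodes the cystine and glutamate exchanger xCT. It had 10.89, 11.24 and 10.74 at 48 h and 9.46 and 9.73 at 72 h, a difference of −1.36 (SE 0.41). In both genes the gap between the groups was wider than the range within either group.

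Over the course of TNF treatment (6, 24, 48 and 72 h), the means of Nqo1 were 7.14, 9.50, 8.62 and 7.48. For Slc7a11 the means were 11.70, 12.36, 10.96 and 9.60. Adh7, an alcohol dehydrogenase that also oxidizes retinol, had 6.53, 8.75, 7.30 and 6.70, and a difference of −0.60 (SE 0.21) in the last day. All 3 genes were highest at 24 h. Between 24 and 48 h Adh7 fell (q = 3.12e-04 in limma), while Nqo1 (q = 0.203) and Slc7a11 (q = 0.137) did not pass. The changes before and after 48 h share the 48 h arrays. Untreated cells had means at 48 and 72 h of 8.06 and 7.70 for Nqo1 and of 11.15 and 10.39 for Slc7a11. For Adh7 they were 6.64 and 6.48.

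C1s2 encodes a C1s-type protease and is a close copy of C1s1, the complement protease that cleaves C4. It had 7.01, 7.56 and 7.14 at 48 h and 6.80 and 6.40 at 72 h (difference −0.64, SE 0.21), whereas C1s1 had 8.57, 8.96 and 8.64 at 48 h and 9.31 and 9.18 at 72 h (difference 0.52, SE 0.26). The copies differed in opposite directions, and how far their probes share targets was not tested. Kitl, the ligand of the receptor KIT, had 9.63, 9.35 and 9.06 at 48 h and 8.65 and 8.76 at 72 h (difference −0.64, SE 0.21). Nid1, which encodes nidogen of basement membranes, differed by −0.56 (SE 0.18).

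Resf1, a factor in the silencing of retroelements, differed by −0.72 (SE 0.24), Reps2, an endocytosis adaptor, by −0.81 (SE 0.30), and Cstad by −0.50 (SE 0.18). Syne2, which encodes the nuclear envelope protein nesprin-2, led with 2 probe sets (−0.51 and −0.56). The rest were Taf1d, a factor of RNA polymerase I transcription (−0.56, SE 0.21), and the olfactory receptor genes Olfr172 (−0.59, SE 0.22) and Olfr1314 (−0.61, SE 0.23), both dim on all 5 arrays. Without the first 48 h array Resf1 differed by −0.41 and the Syne2 probe sets by −0.33 and −0.36. Without the second, Cstad differed by −0.32 and this Taf1d probe set by −0.35.

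The largest differences downward did not have the smallest p. A probe set of Top2a, which encodes DNA topoisomerase II alpha, had 5.69, 9.33 and 7.57 at 48 h and 5.24 and 5.76 at 72 h (difference −2.03, SE 1.05), with overlap. Pcp4, a calmodulin-binding protein, had 9.89, 11.87 and 10.31 at 48 h and 9.05 and 8.87 at 72 h (difference −1.73, SE 0.68). Cd36, a receptor for fatty acids and lipoproteins, had 7.39, 9.21 and 7.81 at 48 h and 6.58 and 6.82 at 72 h (difference −1.44, SE 0.82). In each of these the second 48 h array was the highest of the 5.

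The same held for another probe set of Taf1d, with 8.43, 10.99 and 8.74 at 48 h and 8.17 and 8.27 at 72 h (difference −1.16, SE 0.92), and for Gcnt4, a glycosyltransferase, with 8.48, 9.73 and 8.21 at 48 h and 7.74 and 7.80 at 72 h (difference −1.04, SE 0.57). In this Taf1d probe set, the Top2a probe set above, Cd36 and Gcnt4 the array numbered 2 was also highest in untreated cells at 0, 48 and 72 h. The same held there for TNF-treated cells at 24 h, but neither TNF array of 72 h was high. In Pcp4 it held for untreated cells at 48 and 72 h, but not for untreated cells at 0 h or TNF-treated cells at 24 h. The labels do not say whether an array number stands for the same culture at each time. For genes in which the second 48 h array was the highest, or the lowest as in Ucma, a difference in the cultures sampled and a change over time cannot be told apart. Without the second 48 h array the difference was −0.57 for Gcnt4, −1.14 for Pcp4 and −0.90 for Cd36. Hmgn5, a nucleosome-binding protein, had 8.34, 8.16 and 7.63 at 48 h and 6.94 and 7.02 at 72 h (difference −1.06, SE 0.61) and no such high array. Top2a, Pcp4, Cd36, Gcnt4 and Hmgn5 were chosen here after their values were seen.

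The second question was whether members of known pathways and cell types differed together. No member of the 46 gene lists had a q-value under 0.05, and list medians ran from −0.20 to 0.14 beside 0.02 over all genes. Members named outside the 3 farthest from 0 in each list were chosen after their values were seen.

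Lcn2, Cxcl10 and Nfkbia, targets of NF-κB, had high signals at both times. Lcn2, the iron-binding defence protein lipocalin-2, had 12.99, 12.58 and 12.61 at 48 h and 13.37 and 12.99 at 72 h (difference 0.46, SE 0.39). Cxcl10, a chemokine that attracts T cells, had 12.70, 12.66 and 12.65 at 48 h and 12.67 and 12.78 at 72 h (difference 0.06, SE 0.23). Nfkbia, which encodes the inhibitor IκBα, had 12.34, 12.57 and 12.50 at 48 h and 12.43 and 12.47 at 72 h (difference −0.02, SE 0.16). In all 3 genes the arrays of the times overlapped, and the 95% interval of the difference for Nfkbia ran from −0.35 to 0.32. Lcn2 differed by 0.26 without the first 72 h array. Tlr2, a Toll-like receptor, differed by 0.02 (SE 0.22).

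Among 16 measured NF-κB subunits and inhibitors, 2 were higher and 2 lower without overlap, beside 10.4% and 7.26% of all genes (median −0.02). Nfkbie, which encodes the inhibitor IκBε, was the farthest up at 0.33 (SE 0.14). Relb, a subunit of the slower NF-κB pathway, had 0.19 (SE 0.15), and Bcl3, a nuclear protein of the IκB family, −0.20 (SE 0.30). Without the third 48 h array, 6 members were higher (37.5%) and 5 lower (31.2%) without overlap, and the median was 0.04.

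Of 30 chemokines and cytokines, 1 was higher and 3 were lower without overlap, beside 10.4% and 7.26% of all genes. On all 5 TNF arrays, 9 were above the dim level. Mean signals of the list were 7.26 to 7.38 at 48 h and 7.25 on both 72 h arrays. Ccl2, which attracts monocytes, had 12.73, 13.03 and 12.53 at 48 h and 12.38 and 12.37 at 72 h (difference −0.39, SE 0.39). Ccl7, of the same group, had 9.78, 11.22 and 10.22 at 48 h and 9.54 and 10.06 at 72 h (difference −0.60, SE 0.39). Tslp, an epithelial cytokine, had 5.65, 6.54 and 6.08 at 48 h and 5.18 and 5.65 at 72 h (difference −0.68, SE 0.30). The arrays were separate for Ccl2 alone among these 3, and the second 48 h array was the highest in each. Without that array Ccl2 differed by −0.25 and Ccl7 by −0.20. Ccl7 differed by −0.92 without the first 48 h array and by −0.34 without the first 72 h array, and Tslp by −0.44 without the latter.

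Of 21 interferon-stimulated genes, 4 were higher and 4 lower without overlap, beside 10.4% and 7.26% of all genes. Cmpk2, a mitochondrial nucleotide kinase, had 0.49 (SE 0.19), Oasl2, of the oligoadenylate synthetase family, 0.39 (SE 0.13), and Gbp5, a guanylate-binding protein, −0.41 (SE 0.20). Among 13 Toll-like receptors and adaptors, Tlr4, the endotoxin receptor, was farthest from 0 at −0.61 (SE 0.34, −0.24 without the second 48 h array), and among 15 TNF ligands and receptors it was Tnfsf18, the ligand of GITR, at 0.54 (SE 0.33).

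Of 16 measured complement and coagulation regulators, 15 had positive differences, 4 were higher without overlap and 0 lower (median 0.09). Over all genes, 10.4% were higher and 7.26% lower without overlap, and 11084 of 19938 had positive differences. Only 6 of the 16 members were above the dim level on all TNF arrays. The separate members were C4b, C1s1, Serping1 and C7. Serping1, which encodes the C1 inhibitor, had 8.89, 8.90 and 9.08 at 48 h and 9.68 and 9.68 at 72 h (difference 0.72, SE 0.29). C7, a part of the membrane attack complex, was dim on all arrays and differed by 0.12 (SE 0.17). With each array left out in turn, the median ran from 0.06 to 0.11. Without the third 48 h array 8 members were higher without overlap and 0 lower, beside 24.7% and 15.8% of all genes.

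NRF2 is a factor that binds antioxidant response elements when cells are oxidized and raises genes of glutathione synthesis and detoxification. Of 15 measured antioxidant genes and NRF2 targets, 4 were lower without overlap and 0 higher, beside 7.26% and 10.4% of all genes (median −0.10). Besides Slc7a11 and Nqo1 these were Gclm and Gclc, the subunits of the enzyme that starts glutathione synthesis. Gclm had 10.95, 11.44 and 11.16 at 48 h and 10.91 and 10.90 at 72 h (difference −0.28, SE 0.23). Gclc had 11.98, 12.20 and 11.95 at 48 h and 11.84 and 11.82 at 72 h (difference −0.22, SE 0.25). Their differences were far smaller than those of Nqo1 and Slc7a11. Srxn1, sulfiredoxin, had −0.32 (SE 0.30) with overlap, and between −0.52 and −0.19 with each array left out. The list median rested on single arrays of 48 h, since it was −0.20 without the first, 0.00 without the second and −0.04 without the third.

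The promoters of Nqo1 and Gclm are shown to set the gene of this list with the lowest p beside a member with a smaller difference. The core of the antioxidant response element, TGACNNNGC, was searched on both strands from 250 bases before to 50 after the start, in RefSeq windows of GRCm38.p6. Nqo1 (chr8:107403156-107403455, minus strand) holds no match in this window. Gclm (chr3:122245307-122245606, plus strand) holds 1 on the opposite strand, in capitals, at −134 from the start.
Nqo1: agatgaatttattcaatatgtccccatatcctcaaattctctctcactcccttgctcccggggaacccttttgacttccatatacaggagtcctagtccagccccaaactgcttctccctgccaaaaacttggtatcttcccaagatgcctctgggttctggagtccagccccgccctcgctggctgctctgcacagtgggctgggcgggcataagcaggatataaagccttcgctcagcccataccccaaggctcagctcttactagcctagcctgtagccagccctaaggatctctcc
Gclm: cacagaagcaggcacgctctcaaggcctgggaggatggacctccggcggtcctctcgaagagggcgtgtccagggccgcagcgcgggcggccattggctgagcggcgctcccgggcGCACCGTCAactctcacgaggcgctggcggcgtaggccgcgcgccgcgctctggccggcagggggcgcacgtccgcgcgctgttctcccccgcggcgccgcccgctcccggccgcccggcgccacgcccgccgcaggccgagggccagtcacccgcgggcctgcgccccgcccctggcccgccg
Of 11 members with a window, 5 hold the core, beside 12.4% of all 32851 windows. Members are counted once per gene, with a match in any window, and the share is over single windows. The count and the share are thus unlike measures. A match is a run of letters and not a site shown to be bound.

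Cholesterol synthesis turns acetyl-CoA into sterols and is set by the factor SREBP2, which is active when membrane sterol is low and is held back by INSIG proteins. Of 18 measured members, 11 were lower without overlap and 0 higher, beside 7.26% and 10.4% of all genes, and the median was −0.18. No other of the 46 lists had so large a share of members separate in one direction. None reached an unadjusted p under 0.05. Lower without overlap were Idi1, Insig1, Msmo1, Nsdhl, Lss, Fdps, Cyp51, Sc5d, Stard4, Fdft1 and Dhcr7, which span the pathway from isoprenoids to sterols along with its regulator Insig1 and the sterol carrier Stard4.

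Idi1, the isomerase of isopentenyl diphosphate, had 10.78, 10.77 and 10.29 at 48 h and 10.08 and 10.09 at 72 h (difference −0.52, SE 0.32). Insig1, the sterol-sensing inhibitor of SREBP processing, had 11.70, 11.43 and 11.34 at 48 h and 11.16 and 11.05 at 72 h (difference −0.38, SE 0.19). Msmo1, a sterol oxidase, had 11.96, 12.09 and 11.90 at 48 h and 11.67 and 11.59 at 72 h (difference −0.36, SE 0.22). Idi1 had the largest difference of the 11 genes, and in all 3 genes the third 48 h array lay nearest to the 72 h arrays.

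Fdps, farnesyl diphosphate synthase, had 11.01, 10.98 and 11.003 at 48 h and 10.73 and 10.71 at 72 h (difference −0.28, SE 0.25). Lss, lanosterol synthase, had 9.80, 9.75 and 9.75 at 48 h and 9.41 and 9.47 at 72 h (difference −0.33, SE 0.27). The arrays of each time lay close together in both genes, while the SE draws on the spread within all 9 groups. Srebf2, which encodes SREBP2 itself, differed by 0.06 (SE 0.10) with overlap.

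With any of the 5 arrays left out, 11 or 12 of the 18 members were lower without overlap, beside 14.4% to 18.3% of all genes. Untreated cells gave a median of −0.19 and 8 members lower without overlap, beside 3.96% of all genes, and 0 higher, beside 3.57%.

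Hmgcs1, which encodes the synthase before the rate-limiting step, had 12.79, 12.68 and 12.50 at 48 h and 12.51 and 12.42 at 72 h (difference −0.19, SE 0.14), with overlap. Its promoter is shown because it alone, of 14 members with a window, holds CACCCCAC, a form of the sterol response element. The letters stand in capitals at −136 in chr13:119690101-119690400 (plus strand, GRCm38.p6). Of all windows, counted singly and not per gene, 2.87% hold them on either strand.
Hmgcs1: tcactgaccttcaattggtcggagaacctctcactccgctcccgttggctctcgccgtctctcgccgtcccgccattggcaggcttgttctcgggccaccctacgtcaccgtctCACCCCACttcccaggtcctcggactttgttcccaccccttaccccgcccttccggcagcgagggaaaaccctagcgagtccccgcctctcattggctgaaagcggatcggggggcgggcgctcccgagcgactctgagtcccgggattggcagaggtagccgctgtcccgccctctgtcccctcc

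**Figure D3:**
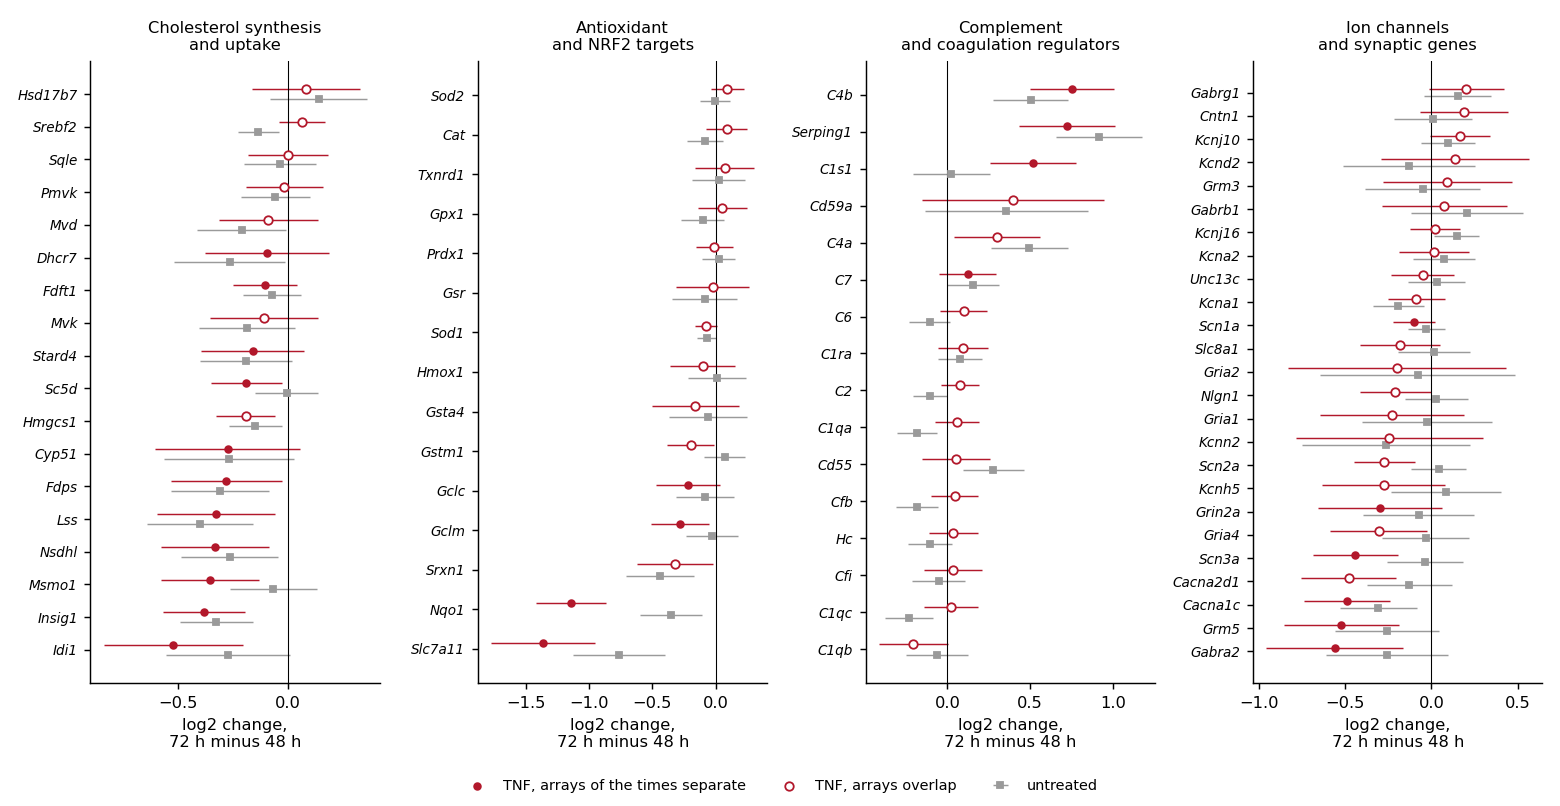
Log2 change from 48 to 72 h (horizontal axis, bars are the SE of the fit over all arrays) of each measured member of 4 gene lists, in red under TNF and in grey in untreated cells. Filled red points are members whose TNF arrays do not overlap between the times. In the cholesterol list 11 of 18 members are filled, all to the left of 0, and in the complement list the 4 filled members are to the right.

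Mitosis genes were mostly dim at both times, with 6 of 29 above the dim level. Mean signals of the list were 6.76 to 7.34 at 48 h and 6.74 to 6.80 at 72 h, against 7.13 to 10.99 in the NSPs at 0 h. The differences were negative for 28 of the 29 (median −0.16), and 6 were lower without overlap. Those 6 were Top2a, Bub1, Kif23, Cenpe, Mki67 and Cenpf, genes of chromosome handling and the spindle. Over all genes, 8854 of 19938 had negative differences and 7.26% were lower without overlap.

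The brighter probe set of Top2a had 6.78, 7.96 and 6.71 at 48 h and 6.65 and 6.53 at 72 h (difference −0.56, SE 1.30). Cdk1, the kinase that drives entry into mitosis, had 8.68, 9.64 and 8.98 at 48 h and 8.76 and 8.61 at 72 h (difference −0.42, SE 1.12). Mki67, the proliferation marker Ki-67, had 6.59, 6.89 and 6.48 at 48 h and 6.40 and 6.43 at 72 h (difference −0.24, SE 1.22). In all 3 genes the second 48 h array was the highest, and without it the list median was −0.02, with 5 members higher (17.2%) and 6 lower (20.7%) without overlap, beside 14.9% and 16.5% of all genes. Without it Cdk1 differed by −0.15 and the brighter Top2a probe set by −0.16. The SE pools the spread of all groups, 0 h included, where the SD of Top2a over 3 arrays was 2.26. Ccna2, cyclin A2, differed by −0.50 (SE 1.29, −0.11 without the second 48 h array) with overlap. In Top2a, Mki67 and Ccna2 the array numbered 2 was also highest in untreated cells at 0, 48 and 72 h. The same held for TNF-treated cells at 24 h.

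The Top2a promoter is shown because 20 of the 25 mitosis genes with a window hold TTTGAA, the core of the cell cycle homology region. Of all windows, 17.9% hold it, a share over single windows and not over genes. It holds the letters at −179 and, on the opposite strand, at −23 (chr11:99024140-99024439, minus strand, GRCm38.p6), both in capitals.
Top2a: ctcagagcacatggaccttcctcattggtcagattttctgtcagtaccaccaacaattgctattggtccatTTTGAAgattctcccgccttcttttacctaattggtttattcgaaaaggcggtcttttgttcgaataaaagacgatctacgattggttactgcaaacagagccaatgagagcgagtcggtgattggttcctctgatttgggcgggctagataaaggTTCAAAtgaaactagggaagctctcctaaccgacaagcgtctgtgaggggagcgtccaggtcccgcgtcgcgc

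Ion channel and synaptic genes had the lowest median, −0.20, with 6 of 25 members lower without overlap and 0 higher. Over all genes these shares were 7.26% and 10.4%. Gabra2, a GABA receptor subunit, had 8.01, 7.86 and 7.84 at 48 h and 7.13 and 7.54 at 72 h (difference −0.56, SE 0.40). Grm5, a metabotropic glutamate receptor of young astrocytes and neurons, had 11.15, 10.64 and 10.45 at 48 h and 10.31 and 10.14 at 72 h (difference −0.52, SE 0.34). Cacna1c, a calcium channel subunit, had 9.36, 9.66 and 9.25 at 48 h and 8.92 and 8.95 at 72 h (difference −0.49, SE 0.25). The 48 h arrays of Grm5 spread the most of these 3. The other separate members were the sodium channel genes Scn3a (−0.44, SE 0.25) and Scn1a (−0.10, SE 0.12) and the glutamate receptor gene Grin2a (−0.30, SE 0.36). Without the first 48 h array the median was −0.10, and without the first 72 h array −0.13. Grm5 differed by −0.32 without the first 48 h array, Gabra2 by −0.36 and Grin2a by −0.15 without the first 72 h array. Without the third 48 h array 11 members were lower without overlap (44.0%) and 1 higher.

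Most of these genes are long, with 22 of the 25 spanning 49365 bp or more, as do the longest 25% of protein-coding genes. The mean signal of those longest genes minus the shortest 25% was 1.49, 1.53 and 1.40 on the 48 h arrays and 1.41 and 1.40 on the 72 h arrays. The third 48 h array was again like the 72 h arrays. Over all 4639 of the longest genes the median difference was −0.01, and over the 4639 shortest 0.03. Without overlap, 450 of the longest genes were higher and 496 lower, against 479 and 233 of the shortest. The part of gene length in the list's difference was not tested.

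Of 29 astrocyte markers, 2 were higher and 3 lower without overlap (median 0.06), and 21 had positive differences. Over all genes, 10.4% were higher and 7.26% lower without overlap, and 11084 of 19938 had positive differences. Without the third 48 h array 12 were higher (41.4%) and 3 lower (10.3%) without overlap, with a median of 0.12. Without the second, 2 were higher (6.90%) and 8 lower (27.6%), beside 14.9% and 16.5% of all genes. Gfap had 12.34, 12.65 and 12.79 at 48 h and 12.54 and 12.78 at 72 h (difference 0.07, SE 0.29). Sparcl1, a secreted protein that helps synapses form, had 12.25, 12.75 and 12.30 at 48 h and 11.72 and 11.75 at 72 h (difference −0.70, SE 0.34). Aldh1l1, an enzyme of folate metabolism that marks astrocytes, had 11.46, 11.66 and 11.45 at 48 h and 11.17 and 10.87 at 72 h (difference −0.50, SE 0.20). Gfap overlapped between the times, and Sparcl1 and Aldh1l1 did not. Slc14a1, a urea transporter, was farthest up at 0.52 (SE 0.46), and at 0.18 without the second 48 h array. The other separate members were Clu, the secreted chaperone clusterin, at 0.35 (SE 0.22), and Aqp4, the water channel of astrocytes, at −0.25 (SE 0.36).

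Among markers of immature cells, Cd44, the hyaluronan receptor, had 9.85, 9.98 and 9.76 at 48 h and 9.51 and 9.60 at 72 h (difference −0.31, SE 0.32). Prom1, which encodes CD133, had 7.01, 7.46 and 6.93 at 48 h and 7.51 and 6.90 at 72 h (difference 0.07, SE 0.25). The arrays of Cd44 were separate, while the 2 arrays of 72 h lay at either end of the range for Prom1. Tnc, the matrix protein tenascin C, differed by −0.57 (SE 0.54) with overlap. Aldh1a1 and Neurod1 are not markers of immature cells in the study. Aldh1a1, a retinal dehydrogenase that the study takes as a marker of astrocytic differentiation, differed by −0.28 (SE 0.46) with overlap. Neurod1, a neuronal transcription factor, differed by 0.48 (SE 0.24) at dim signals. Without the second 48 h array Tnc differed by −0.09 and Neurod1 by 0.29, and without the first Tnc differed by −0.88.

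Notch signalling keeps neural progenitors undifferentiated through the receptors and the nuclear factor RBPJ. Of 18 members, 4 were higher without overlap and 0 lower, beside 10.4% and 7.26% of all genes (median 0.11). The 4 members were the receptors Notch1 (0.20, SE 0.15) and Notch2 (0.33, SE 0.27), Rbpj (0.12, SE 0.09) and the target Hey1 (0.18, SE 0.15). The targets Hes1 (−0.02, SE 0.21) and Hes5 (0.08, SE 0.46) overlapped. So did Id1 (0.04, SE 0.17) and Id3 (−0.07, SE 0.16), targets of BMP signalling, and Socs3 (0.08, SE 0.21), a target of STAT3. Notch2 differed by 0.21 without the second 48 h array. The Notch median was 0.01 without the second 48 h array and 0.19 without the third, when 11 members were higher without overlap, beside 24.7% of all genes.

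In other lists single genes stood farthest from 0. Igfbp5, a binding protein of insulin-like growth factors, had 10.25, 9.89 and 10.56 at 48 h and 10.84 and 10.85 at 72 h (difference 0.61, SE 0.27). In its list, 4 of 12 members were higher and 1 lower without overlap, beside 10.4% and 7.26% of all genes. Bmp6, a bone morphogenetic protein, differed by 0.63 (SE 0.28), Serpina3n, an acute phase protease inhibitor, by 0.62 (SE 0.70), Cd68, a lysosomal protein of macrophages, by −0.78 (SE 0.46), Lpl, lipoprotein lipase, by −0.46 (SE 0.21), and Pygm, a glycogen phosphorylase, by −0.62 (SE 0.52). Of these 6 genes, Bmp6 and Cd68 overlapped between the times. Without the first 48 h array Bmp6 differed by 0.33 and Serpina3n by 0.37, and without the second 72 h array Serpina3n differed by 0.34.

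**Figure D4:**
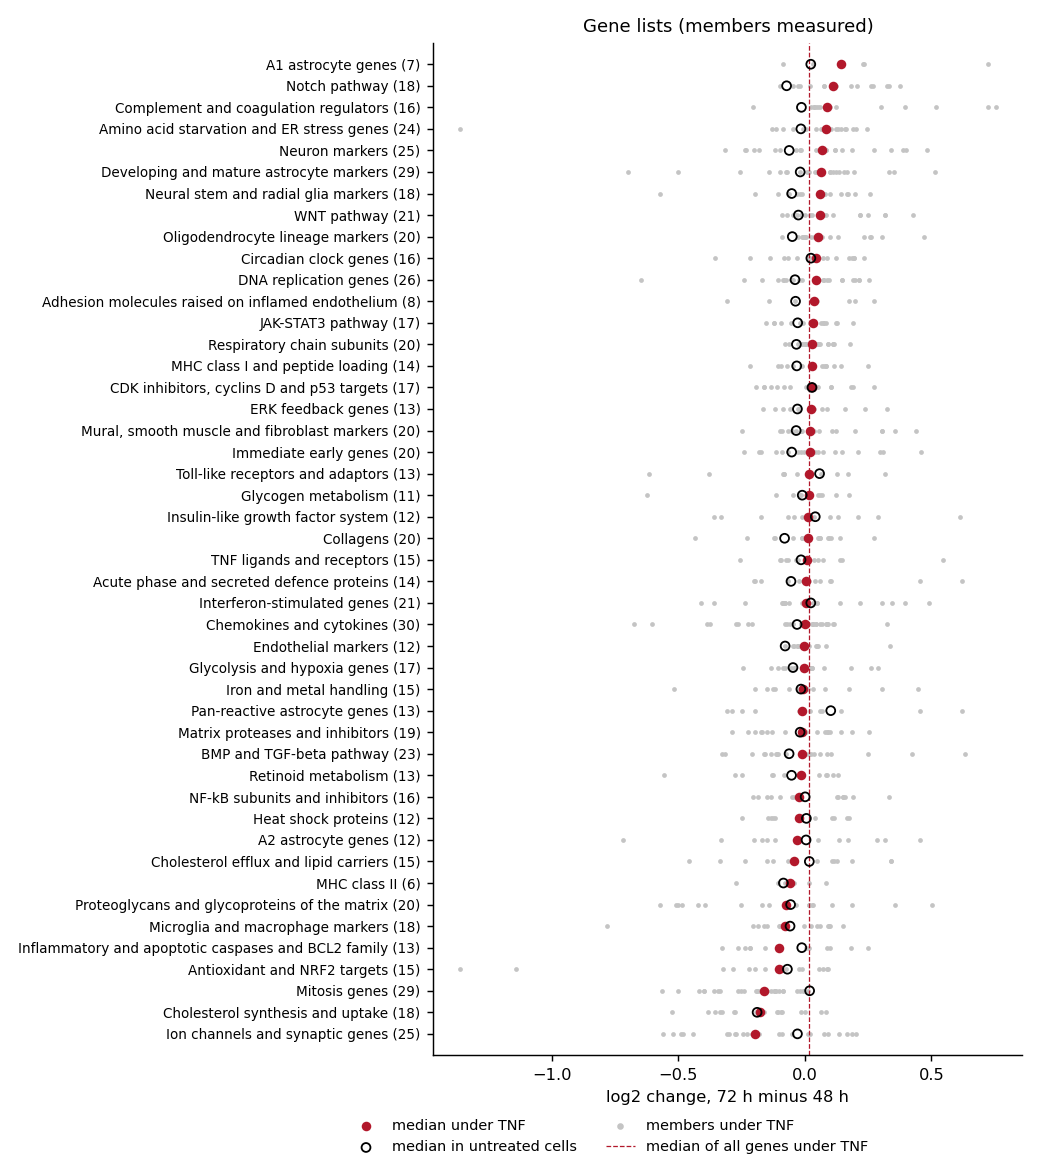
For each gene list (number of measured members in brackets), grey points are the members' log2 changes under TNF from 48 to 72 h, the red point is their median, and the open circle is the median in untreated cells. The dashed line is the median of all genes under TNF, 0.02. Medians run from −0.20 for ion channels and synaptic genes to 0.14 for A1 astrocyte genes.

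The third question was whether the last day differed between TNF-treated and untreated cells. The difference of the changes was called for 0 probe sets in limma (0% of 35556), with 419 at an unadjusted p under 0.05 and a smallest q-value of 0.42. With array weights 2 probe sets without a symbol were called lower. Across the 23410 probe sets with a symbol, the change under TNF and the change in untreated cells correlated at r = 0.18, a description across genes, which are not independent. The changes share no arrays, but the labels do not say whether arrays of equal number share a culture. Of the 30 leading probe sets, 28 had the same sign in untreated cells, C1s2 and Resf1 being the exceptions. Plb1 and Syne2 entered with 2 probe sets each. The share of equal signs over all probe sets is not given here, so the count has no background to be read against.

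Sorbs3 differed by 0.56 in untreated cells (SE 0.11) and by 0.64 under TNF, and the 95% interval of the difference between these changes ran from −0.25 to 0.41. Gpld1 differed by 0.71 (SE 0.16) and 0.97, with an interval from −0.25 to 0.78. Nqo1 differed by −0.35 (SE 0.24) and −1.14, with an interval from −1.55 to −0.02. The interval of Nqo1 lay below 0 before adjustment, but not after it (q = 1). Slc7a11 differed by −0.76 (SE 0.37) without and −1.36 with TNF, with an interval from −1.75 to 0.55. C1s2 differed by 0.43 without and −0.64 with TNF (difference −1.07, SE 0.29, q = 1).

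Cxcl10 rose in untreated cells from a mean of 8.47 to 9.85 (difference 1.38, SE 0.21, q = 0.036 in limma), while under TNF it had 12.67 and 12.73. Ccl2 differed by 0.95 (SE 0.35) without and −0.39 with TNF, and Lcn2 by 1.61 (SE 0.35) and 0.46. These 3 genes thus moved up more in untreated cells by their estimates, from lower starting levels. The differences between the changes were −1.32 for Cxcl10 (SE 0.31), −1.33 for Ccl2 (SE 0.53) and −1.16 for Lcn2 (SE 0.52), and none passed. Cnmd, which encodes the cartilage protein chondromodulin, was the other named gene that rose in untreated cells (1.05, SE 0.17, q = 0.037) and differed by 0.50 under TNF (SE 0.18). With each untreated array left out in turn, Cxcl10 stayed called only without the first 72 h array. Cnmd stayed called only without the second.

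**Figure D5:**
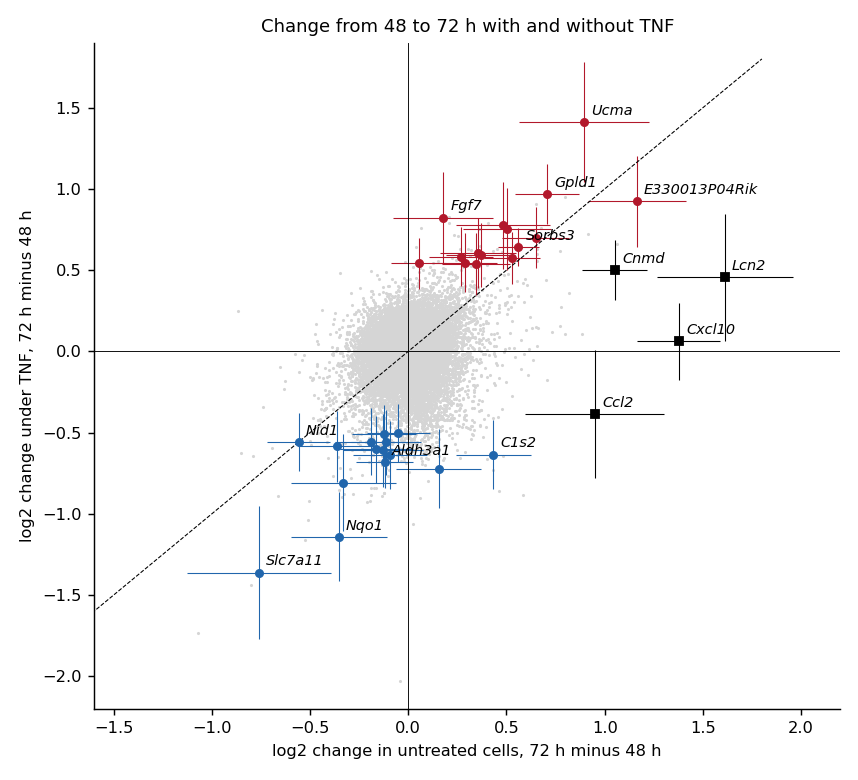
Log2 change from 48 to 72 h in untreated cells (horizontal axis) and under TNF (vertical axis) for every probe set with a symbol in grey, with SE bars for the 30 leading probe sets (red and blue) and for Lcn2, Ccl2, Cxcl10 and Cnmd (black squares). The dashed line marks equal changes. The black squares lie to the right of the line, and 28 of the 30 coloured points lie in the quadrants of equal sign.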

How the data were processed

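Total RNA was hybridised to Affymetrix MoGene 1.0 ST arrays. The authors deposited log2 values after RMA normalization with the oligo package in R 3.3.1 (versions per the labels). In R 4.3.3, all 26 arrays entered a linear model with 9 group means in limma 3.58.1, and q-values were computed over all 35556 probe sets with a threshold of 0.05. Arrays were unpaired in the main fit. Of the probe sets, 21789 had 1 gene symbol, 1621 several and 12146 none, and genes were named only from probe sets with 1 symbol. Named were the 15 leading probe sets in each direction, the 3 members of each list farthest from 0 and genes the study names. Where a gene had several probe sets, the one with the highest mean stood for it in lists. The comparison, the gene lists and the tests were chosen with earlier results of these data known. Of 804 listed genes, 753 were measured. The fit was tested on simulated data. Same-numbered untreated arrays of 48 and 72 h deviated together (r = 0.16, 0.42 and 0.30), and blocking on the number left their calls at 3. Promoters are RefSeq windows of GRCm38.p6. The precision is limited by the number of arrays.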

Additional observations from a re-analysis of the deposited data

How the results depend on the processing

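Under TNF, 0 probe sets were called higher and 0 lower in the main fit, and the count of lower calls was 0 under every alternative run. The count of higher calls was 1 with array weights (Sorbs3), and it ran from 0 to 1 with each array left out, the 1 call being Gpld1 without the third 48 h array. Neither call was shared between these settings. In untreated cells the 3 calls became 1 at a q-value under 0.01, 0 with only the arrays compared, 0 with only the arrays of 48 and 72 h, and 17 with array weights, which also called 3 lower. With each untreated array left out, 1 to 2 were called. Cxcl10 was among them only without the first untreated 72 h array, and Cnmd only without the second. The difference of the changes had 2 lower calls with array weights. The causes were not tested. With 2 arrays at 72 h, an exact permutation test of 2 against 3 arrays cannot give a two-sided p below 0.2.

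The replicate number was also fitted as a block. The same-numbered TNF arrays of 48 and 72 h deviated at r = 0.09 and 0.06. With 2 arrays at 72 h, their deviations mirror each other, so these values cannot tell whether the pairs share a culture. The labels do not tie the number to a culture at 72 h. Both block fits rest on these numbers. Untreated arrays of equal number deviated together (r = 0.16, 0.42 and 0.30). With the replicate block, 0 probe sets were called under TNF (822 higher and 993 lower at an unadjusted p under 0.05), and 0 with the block on only the arrays of 48 and 72 h (1701 and 1911), an alternative chosen after seeing the data. That block gave 0 untreated calls, and the block on all arrays 3.

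Of 1941 alternative values for 109 named probe sets, 1918 kept their direction and side of the threshold, 2 passed it and 21 changed sign, all 21 in 8 probe sets with differences close to 0. Median centring gave 0.018 for Nfkbia and 0.018 for Hes1. Tlr2 had −0.011 with array weights and −0.042 with the replicate block, and Prom1 −0.027 with the block. With the block on only the arrays of 48 and 72 h, Prom1 had −0.086 and Hes1 0.012. With each array left out, the values ran from −0.084 to 0.032 for Nfkbia, −0.166 to 0.199 for Tlr2, −0.239 to 0.380 for Prom1, −0.059 to 0.185 for Gfap, −0.146 to 0.110 for Hes1, −0.152 to 0.200 for Hes5, −0.077 to 0.229 for Socs3 and −0.018 to 0.074 for Id1.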

Other observations

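Small RNA genes were outside the gene lists. Many of their 119 probe sets hold identical values on the 5 TNF arrays, which leaves 88 distinct sets of values. Of these 88, 67 (76.1%) had lower means at 72 h than at 48 h under TNF (median −0.16), beside 44.4% of all genes. By 0.5 or more, 12 were lower and 0 higher, and 3 of the 88 reached an unadjusted p under 0.05 in limma. The second 48 h array was the highest of the 5 in 40 of the 88 and in 11 of the 12, and its part in the differences was not tested. Rnu12, which encodes the U12 RNA of the minor spliceosome, had log2 signals of 8.58, 11.14 and 9.75 at 48 h and 8.81 and 9.06 at 72 h. The second 48 h array was again the highest, and the groups overlapped.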
